A study of Mus musculus with 6 samples.

Results

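Complex I (NADH:ubiquinone oxidoreductase) is the respiratory chain enzyme that oxidises NADH, hands the electrons to ubiquinone and pumps protons across the inner mitochondrial membrane. It is built from subunits of both genomes, and 7 of its membrane-arm subunits are encoded by mitochondrial DNA: mt-Nd1, mt-Nd2, mt-Nd3, mt-Nd4, mt-Nd4l, mt-Nd5 and mt-Nd6. These 7 genes were taken by symbol from the 54532 genes listed for each library. They were chosen on values measured in these libraries, because the difference between PGAM5 KD and control libraries in the mitochondrial mRNAs was already known. Their differences between the groups are therefore given as a description. Counts of these genes past a threshold are printed beside those of all genes, and are not used as a test.

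RNA-seq of mRNA was available for 6 libraries of immortalized mouse bone marrow-derived macrophages (iBMDMs), a line that grows without limit through the retrovirally delivered oncogenes v-raf and v-myc. Control cells carried a control shRNA, PGAM5 KD cells carried an shRNA against Pgam5, and each group had 3 libraries. Both shRNAs were delivered by lentivirus, and both groups received 100 ng/ml LPS for 4 hours, so the data hold no cells without LPS. PGAM5 is a mitochondrial serine/threonine protein phosphatase. Each group is 1 shRNA line, so an effect of the lower Pgam5 level and any other difference between the lines cannot be told apart. The labels do not say whether replicates were separate cultures, so the tests measure the spread between these libraries, which may be technical.

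The values are FPKM, fragments assigned to a gene scaled by its exon length and by the library's total, and they correspond to 18163464 to 24388917 assigned fragments per library. The Pgam5 level was 17.1, 12.97 and 13.4 FPKM in control cells against 4.33, 5.75 and 4.53 FPKM in PGAM5 KD cells. Its fitted log2 fold change was -1.40 (SE 0.13, adjusted p = 0.000358 by limma on log2(FPKM + 1)), and the exact two-sided permutation test over libraries gave p = 0.1, the smallest that 3 against 3 allows. Of 10 macrophage markers, 9 had a mean of at least 1 FPKM and Mertk was listed at 0 in every library. The summed level of these markers was 2987 to 3073 FPKM in control and 2700 to 2729 FPKM in PGAM5 KD libraries. None of 9 neutrophil and 8 fibroblast markers and 1 of 10 lymphocyte markers reached a mean of 1 FPKM.

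Mitochondrial DNA is transcribed from both strands into long RNAs that hold many genes, and these are cut into single mRNAs, rRNAs and tRNAs. ND1 lies at the foot of the membrane arm beside the ubiquinone site, ND2, ND4 and ND5 are the large antiporter-like subunits along the arm, and ND3, ND4L and ND6 are small subunits near the joint of the arms. In macrophages, LPS is known to change the use of the respiratory chain, complex I included.

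Position, strand and neighbouring sequence differ among the 7 genes, and 3 places on the mitochondrial chromosome matter for reading their counts. All coordinates are those of GRCm38 (mm10) and the sequences are from the GENCODE M21 transcripts. The genes mt-Nd1 (chrM:2751-3707), mt-Nd2 (chrM:3914-4951), mt-Nd3 (chrM:9459-9806), mt-Nd4l (chrM:9877-10173), mt-Nd4 (chrM:10167-11544) and mt-Nd5 (chrM:11742-13565) lie on the plus strand. The mt-Nd6 gene (chrM:13552-14070) is the only one of the 7 on the minus strand. Each is annotated as a single exon with no UTR.

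The pair mt-Nd4l and mt-Nd4 share 7 bases on the same strand, shown in capitals between the end of mt-Nd4l and the start of mt-Nd4 (chrM:10144-10196).
mt-Nd4l to mt-Nd4: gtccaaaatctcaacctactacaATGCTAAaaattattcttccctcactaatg

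The ends of mt-Nd5 and mt-Nd6 overlap by 14 bases on opposite strands, shown in capitals on the plus strand (chrM:13536-13581).
mt-Nd5 to mt-Nd6: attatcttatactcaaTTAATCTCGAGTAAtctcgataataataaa

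The start of mt-Nd3 (chrM:9459-9518) has a near copy in the nuclear genome, the pseudogene Gm28438 (chr1:24613060-24613119, minus strand). Over the bases that align, which are all but the last 3 of mt-Nd3, there was 1 mismatch, T3C, counted from 1 at the first base of the coding sequence and shown in capitals.
mt-Nd3: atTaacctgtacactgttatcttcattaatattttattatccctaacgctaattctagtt
Gm28438: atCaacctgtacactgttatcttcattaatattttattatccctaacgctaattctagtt

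The annotated match on the same stretch of chromosome 1 ends inside mt-Nd4. The capitals mark the bases of mt-Nd4 beyond that edge (chrM:11013-11072).
mt-Nd4: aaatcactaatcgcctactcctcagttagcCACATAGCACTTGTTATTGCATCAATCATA

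The reading frames opened with several codons: GTG in mt-Nd1, ATA in mt-Nd2, ATT in mt-Nd3, ATC in mt-Nd5 and ATG in the other 3 genes. The mt-Nd4 gene has 1378 bases, 1 more than whole codons allow, and ends in a lone T shown in capitals (chrM:11515-11544), a stop codon that is known to be completed by the poly(A) tail.
mt-Nd4 last 30 bases: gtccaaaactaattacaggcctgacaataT

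The base composition of the coding strand also set mt-Nd6 apart. It held 28.1% G and 5.97% C, whereas the other 6 genes held 7.996% to 11.6% G and 22.1% to 29.97% C. The first 30 bases of mt-Nd1 (chrM:2751-2780) and of mt-Nd6 (chrM:14041-14070, minus strand) are shown with the first codon in capitals, and the latter stretch is poor in C, while the excess of G does not show in so short a piece.
mt-Nd1: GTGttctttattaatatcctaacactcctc
mt-Nd6: ATGaataattatatttttgttttaagttca

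The subunit at the foot of the membrane arm had the highest mRNA level. The mt-Nd1 level was 1774, 1834 and 1805 FPKM in control cells against 1197, 1060 and 1026 FPKM in PGAM5 KD cells. Every PGAM5 KD library was below every control library, with 18429 to 35420 fragments behind each value. The means were 1804 ± 30.2 and 1094 ± 90.6 FPKM (SD, n = 3 each), so the PGAM5 KD mean was 60.7% of the control mean, and the fitted log2 fold change was -0.72 (SE 0.06).

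The large antiporter-like subunits were lower by like amounts. The mt-Nd2 level was 630.7, 685 and 687 FPKM in control and 417, 361 and 381 FPKM in PGAM5 KD libraries. The groups did not overlap, and the means of 668 ± 32.1 and 386 ± 28.6 FPKM (SD, n = 3 each) put PGAM5 KD at 57.8% of control (log2 fold change -0.79, SE 0.06). The mt-Nd4 level was 408, 422 and 403 FPKM in control and 244, 259 and 249 FPKM in PGAM5 KD libraries. The groups were again apart, and the means of 411 ± 10.0 and 251 ± 7.68 FPKM put PGAM5 KD at 61.0% of control (log2 fold change -0.71, SE 0.03).

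The mt-Nd5 level was 448, 474 and 492 FPKM in control and 322, 294 and 269 FPKM in PGAM5 KD libraries. Here too every PGAM5 KD library lay below every control library. The means were 471 ± 22.3 and 295 ± 26.4 FPKM (SD, n = 3 each), which put PGAM5 KD at 62.5% of control (log2 fold change -0.68, SE 0.07).

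The gene on the other strand had a difference of the same size. The mt-Nd6 level was 509, 543.5 and 506 FPKM in control and 346, 315 and 292 FPKM in PGAM5 KD libraries, with no overlap between the groups. The means were 519.5 ± 20.8 and 317 ± 26.9 FPKM (SD, n = 3 each), so PGAM5 KD stood at 61.1% of control (log2 fold change -0.71, SE 0.06).

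The counts do not appear to use strand, which bears on mt-Nd6. Of 36 genes whose exons lie wholly under exons of a gene above 10 FPKM on the opposite strand, 36 were listed at 0 in all 6 libraries. Among 18576 noncoding genes and pseudogenes with no exon on the opposite strand, 77.9% were. Fragments from mt-Nd6 and from any RNA antisense to it cannot be told apart in these values.

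The small subunits ND3 and ND4L rested on few fragments. The mt-Nd3 level was 4.43, 4.27 and 3.83 FPKM in control and 2.48, 2.85 and 2.24 FPKM in PGAM5 KD libraries, from 18 to 30 fragments per library. The groups did not overlap and PGAM5 KD stood at 60.4% of control, with means of 4.18 ± 0.312 and 2.52 ± 0.306 FPKM (SD, n = 3 each). The fitted log2 fold change was -0.56 (SE 0.09), which the pseudocount of 1 pulls towards 0. With a pseudocount of 0.1 it was -0.71, and limma-voom on the recovered fragments, which takes their small number into account, gave -0.74 (SE 0.41), so the interval is wide.

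The mt-Nd4l level was 2.97, 3.34 and 2.41 FPKM in control and 2.91, 1.67 and 3.73 FPKM in PGAM5 KD libraries, from 9 to 27 fragments per library. The groups overlapped: the highest and the lowest of the 6 values were both PGAM5 KD libraries. The log2 fold change was -0.08 (SE 0.21), and it was 0.15 without the second PGAM5 KD library. On the recovered fragments limma-voom gave -0.09 (SE 0.49), an interval wide enough to hold both no difference and the differences of the other genes.

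**Figure D1:**
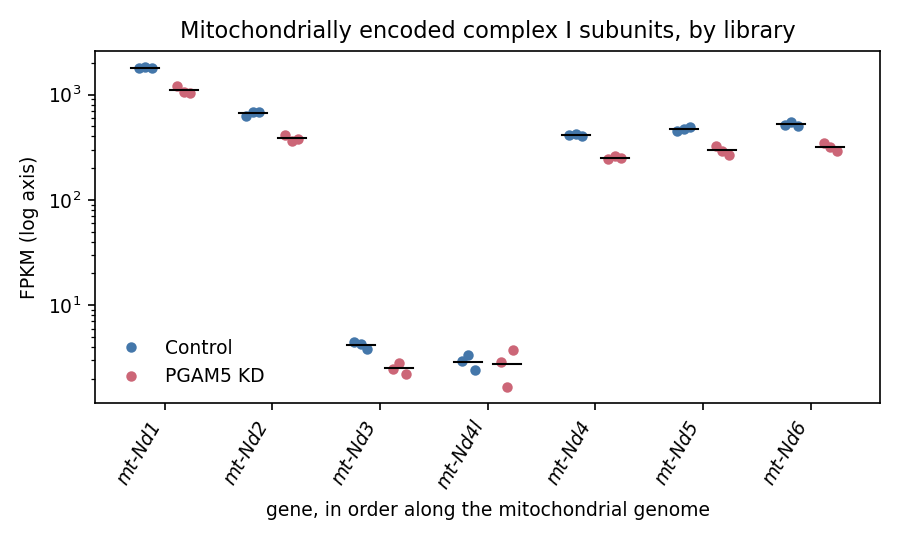
Level of the 7 mitochondrially encoded complex I genes in each library, as FPKM on a log axis, in order along the mitochondrial genome; points are the 3 control (blue) and 3 PGAM5 KD (red) libraries and bars are group means. In 6 genes all PGAM5 KD points lie below all control points, in mt-Nd4l they overlap, and mt-Nd3 and mt-Nd4l sit at 4.43 FPKM or less in every library while the other 5 genes are at 244 or more.

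Of the 7 genes, 6 were lower past an adjusted p of 0.05 and 0 were higher, where 14.9% of the 10540 genes tested were lower past it and 16.8% were higher. Likewise 6 of 7 had all PGAM5 KD libraries below all control libraries, which 22.9% of the tested genes had. With voom on recovered fragments 5 of the 7 were past the threshold, without mt-Nd3. Nothing is read from these counts, since the 7 genes were selected on the same contrast. The median log2 fold change of the 7 genes was -0.71, and that of all tested genes was 0.013.

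The 7 genes together took 0.411% ± 0.0109 (SD, n = 3) of all assigned fragments in control libraries and 0.248% ± 0.0152 in PGAM5 KD libraries, with ranges of 0.398% to 0.419% and 0.236% to 0.265%. In these bulk samples fewer cells of a type and less RNA per cell cannot be told apart, and the number of mitochondrial genomes per cell was not measured.

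The make-up of the set differed little between the groups. Within the fragments of the 7 genes, mt-Nd1 took 41.9% in both groups, mt-Nd5 20.9% in control and 21.5% in PGAM5 KD, and mt-Nd2 16.8% and 16.1%. The share of mt-Nd4 was 13.8% and 13.9%, and that of mt-Nd6 was 6.55% and 6.59%. On a log2 scale, the ratio of each gene to mt-Nd1 differed between the groups by -0.07 for mt-Nd2, -0.01 for mt-Nd3, 0.01 for mt-Nd4, 0.04 for mt-Nd5 and 0.01 for mt-Nd6. For mt-Nd4l it differed by 0.59, and for all 6 ratios the libraries of the groups overlapped.

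By level per length over the whole annotated gene, and subject to the limit on mt-Nd3, mt-Nd4l and mt-Nd4 that is set by nuclear copies and given with them, the order in control libraries was mt-Nd1, mt-Nd2, mt-Nd6, mt-Nd5, mt-Nd4, mt-Nd3 and mt-Nd4l. Each gene's lowest control value was above the highest value of the next gene. In PGAM5 KD libraries the first 5 places were the same, but the ranges of mt-Nd6 and mt-Nd5 overlapped across libraries, although mt-Nd6 was above mt-Nd5 within each of the 3. The ranges of mt-Nd4l and mt-Nd3 overlapped as well, and these genes were not ordered beyond their spread.

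Across the 6 libraries the levels of the 5 abundant genes moved together, with Pearson r of 0.96 to 0.997 over their 10 pairs. The pairs of mt-Nd3 with these genes had r of 0.91 to 0.97, and the 6 pairs with mt-Nd4l had r of -0.02 to 0.22. These coefficients describe 6 libraries that share the difference between the groups and a common total per library.

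The values listed for the 7 genes fell into separate ranges by position, in a stretch where a nuclear copy, described next, limits what they say of RNA levels. The genes mt-Nd1 and mt-Nd2, upstream of mt-Co1, and mt-Nd4, mt-Nd5 and mt-Nd6, downstream of mt-Nd4l, were at 244 FPKM or more in every library. The genes between mt-Co2 and mt-Nd4l, which include mt-Nd3 and mt-Nd4l and the mRNAs of subunits of complex IV (mt-Co2, mt-Co3) and of ATP synthase (mt-Atp6, mt-Atp8), were all at 27.1 FPKM or less. The neighbouring mt-Co1, also a complex IV subunit, was at 2542 ± 75.7 FPKM in control libraries (SD, n = 3).

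**Figure D2:**
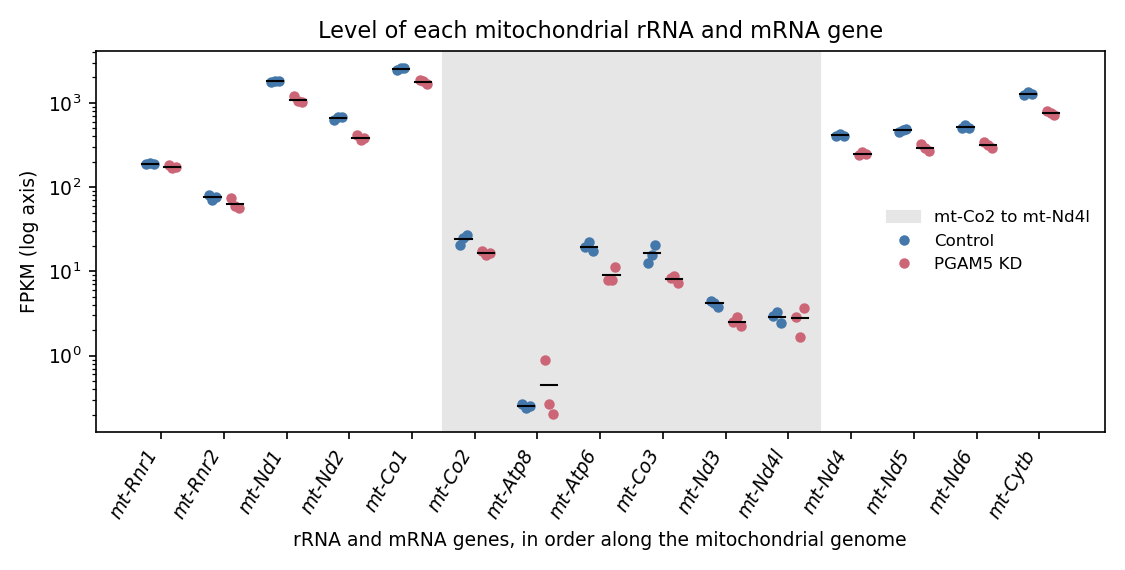
Level of the 2 rRNA and 13 mRNA genes of the mitochondrial genome in each library, as FPKM on a log axis, in genome order; points are libraries, bars are group means and the grey band spans mt-Co2 to mt-Nd4l. The 6 genes in the band, among them mt-Nd3 and mt-Nd4l, lie at 27.1 FPKM or less, while mt-Co1 before it and mt-Nd4 after it are at 244 or more.

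The same stretch has a nuclear counterpart. A region of chromosome 1 (chr1:24611535-24616197) carries 7 annotated pseudogenes that are over 99% identical to mitochondrial mRNA genes. It matched all but 3 of the 348 bases of mt-Nd3, 294 of the 297 bases of mt-Nd4l with no mismatch, and the first 876 of the 1378 bases of mt-Nd4 with no mismatch. No match at this identity was annotated for mt-Nd1, mt-Nd2, mt-Nd5 or mt-Nd6. How fragments that fit more than 1 place were counted is not given in the sources used here, so the levels of mt-Nd3 and mt-Nd4l cannot be compared with those of the other 5 genes. The part of the nuclear copies in the low levels was not tested.

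For mt-Nd3, the copy Gm28438 drew more fragments than the gene itself. It was at 19.1, 24.6 and 24.3 FPKM in control and 14.8, 19.3 and 17.1 FPKM in PGAM5 KD libraries. Only 11.7% to 18.9% of the fragments of the pair were on mt-Nd3. Summed over the pair, the difference was -0.46 on the log2 scale of fragments over the library's total (SD 0.17), with no overlap between the groups.

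For mt-Nd4l, the copy Gm10222 was at 4.31, 5.73 and 5.23 FPKM in control and 5.73, 1.498 and 1.26 FPKM in PGAM5 KD libraries. The share of the pair's fragments on mt-Nd4l ranged from 31.8% to 75.0%, so the split between gene and copy varied between libraries. Summed over the pair, the difference was -0.63 (SD 0.52), and the groups still overlapped.

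For mt-Nd4, at least 99.3% of the fragments of the pair were on the gene and the rest on Gm28439, and the summed difference was -0.71. The annotated copy leaves 502 bases of mt-Nd4 uncovered. If all its fragments came from those bases, its level per length would be 1128 ± 27.5 FPKM in control and 688 ± 21.1 FPKM in PGAM5 KD libraries (SD, n = 3 each), and mt-Nd4 would rank second of the 7 in both groups. The difference between the groups does not depend on the length used.

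Less similar annotated copies held almost no fragments. A copy of part of mt-Nd2, Gm13339, was 96.7% identical over 510 bases and reached 0.301 FPKM at most. The 3 copies of mt-Nd5 and mt-Nd6, which were 92.4% to 95.2% identical, had at most 1 fragment in a library. Nuclear copies with no annotation were not analysed here.

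**Figure D3:**
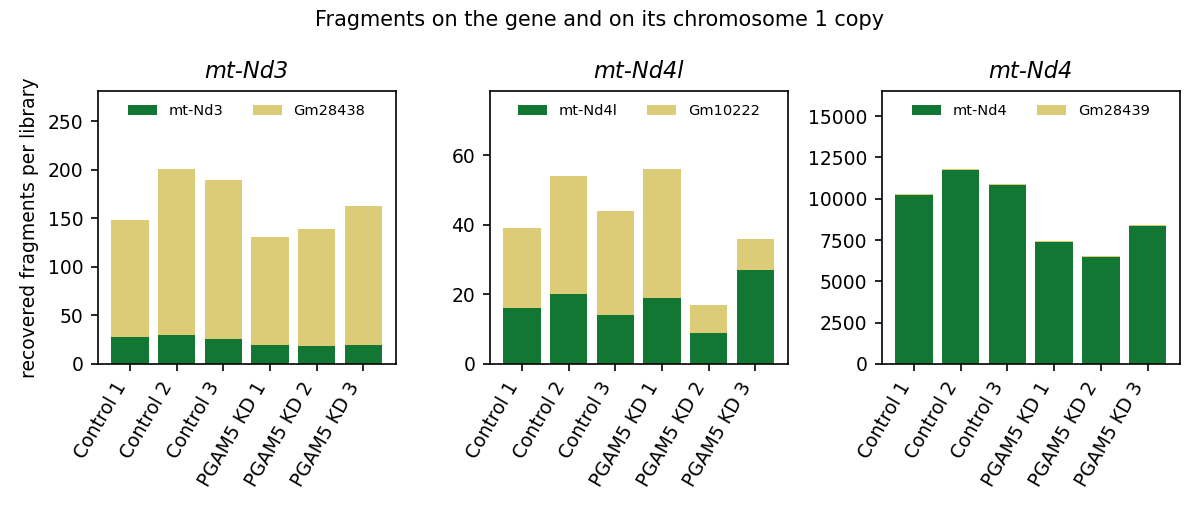
Fragments on mt-Nd3, mt-Nd4l and mt-Nd4 (green) and on their chromosome 1 copies Gm28438, Gm10222 and Gm28439 (yellow), stacked for each of the 6 libraries on linear axes that differ between panels. The copy holds most fragments of the mt-Nd3 pair and a varying part of the mt-Nd4l pair, and it is hardly visible for mt-Nd4.

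Of the 6 other mitochondrial mRNAs, 5 could be tested and were also lower in PGAM5 KD libraries. They had fitted log2 fold changes from -1.06 for mt-Atp6 to -0.51 for mt-Co1, with a median of -0.77. Of these, mt-Co2, mt-Atp6 and mt-Co3 lie in the stretch of low values and rested on 99 to 362 fragments in a library. Their fragments were not summed with those of nuclear copies. The sixth, mt-Atp8, was under 1 FPKM in every library, at 1, 1 and 1 fragments in control and 4, 1 and 1 in PGAM5 KD libraries. These genes come from the contrast that led to the choice of the complex I genes, so they are a description as well. The complex I genes took 43.1% ± 0.122 (SD, n = 3) of the fragments of all 13 mRNAs in control libraries and 40.7% ± 0.748 in PGAM5 KD libraries, and the ranges of 43.0% to 43.2% and 39.9% to 41.4% did not overlap. The largest of the 13 in fragments, mt-Co1 (80645 in the second control library, against 35420 for mt-Nd1), had the smallest fall of the 5. This share weighs genes by their fragments, so it does not show that the complex I mRNAs fell more than the others. The median log2 fold changes were -0.71 for the 7 complex I genes and -0.77 for the 5.

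The rRNA genes, which are transcribed ahead of mt-Nd1 on the same strand, differed less. The 12S rRNA gene mt-Rnr1 was at 188 ± 3.05 FPKM in control and 174 ± 7.94 FPKM in PGAM5 KD libraries (SD, n = 3 each), with a log2 fold change of -0.11 (SE 0.04, adjusted p = 0.0719 by limma). The 16S rRNA gene mt-Rnr2 was at 76.0 ± 4.82 and 63.1 ± 9.59 FPKM, with a log2 fold change of -0.27 (SE 0.10, adjusted p = 0.0864 by limma). Neither passed the threshold. Libraries of mRNA were made with poly-T beads, so these levels do not measure total rRNA.

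**Figure D4:**
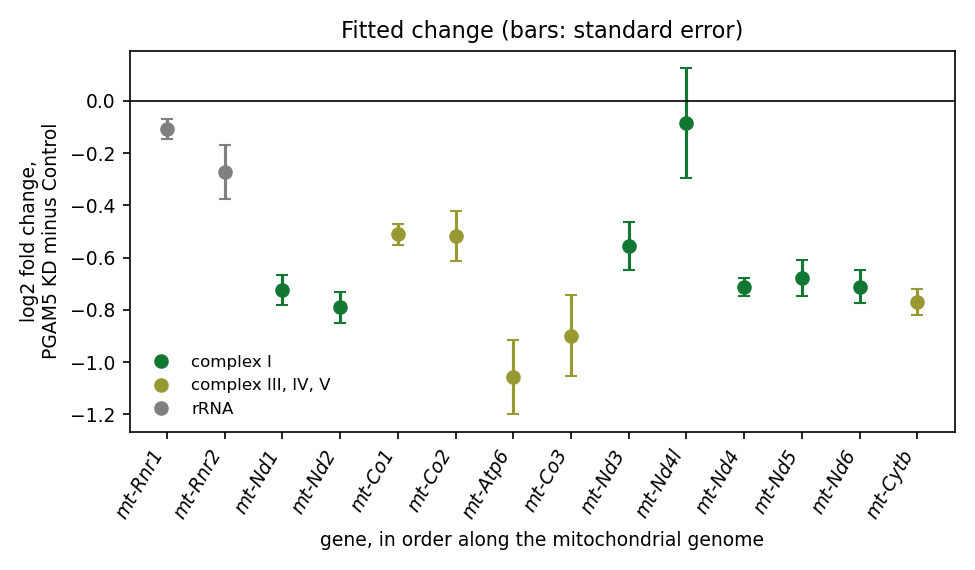
Fitted log2 fold change (PGAM5 KD minus control) of each tested mitochondrial rRNA and mRNA gene in genome order, with bars of 1 standard error; complex I genes are green, mRNAs of complexes III, IV and V olive and rRNAs grey. The points of mt-Nd1, mt-Nd2, mt-Nd4, mt-Nd5 and mt-Nd6 lie between -0.79 and -0.68, whereas mt-Nd4l has its bar across 0 and both rRNAs lie nearer to 0.

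Of 37 nuclear subunit genes of complex I, all measured, 10 rose past an adjusted p of 0.05 and 0 fell by limma (15 and 0 at an unadjusted p under 0.05, and 11 and 0 by voom on recovered fragments). Of the 37 fold changes 31 were positive, with a median log2 fold change of 0.12. Over all tested genes 16.8% rose and 14.9% fell, with a median of 0.013. These counts moved with the setting: 4 rose when the values were scaled to TPM (median 0.04), where 10.3% of all tested genes rose, and 3 rose and 1 fell when TPM was taken over nuclear genes alone (median 0.02), where 9.64% rose and 23.7% fell. The share of the list that rose was thus near or below that of all genes under both scalings. The median of all tested genes was -0.06 under TPM and -0.07 under TPM over nuclear genes, each below that of the list. Under TPM 0 of the list fell, where 21.7% of all tested genes did. In addition, 4 rose without the second PGAM5 KD library, where 12.3% of all tested genes rose, or 6 without the third control library, where 12.2% did. Of the 7 core subunits, which carry the flavin and the iron-sulphur clusters in the matrix arm, 2 rose, and of the 30 accessory subunits 8 rose. Under TPM these counts were 0 and 4, and under TPM over nuclear genes 0 and 3.

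The examples with the largest changes were all accessory subunits. Ndufv3, a subunit of the NADH-oxidising tip, was at 9.15, 7.92 and 6.58 FPKM in control and 10.9, 12.0 and 14.3 FPKM in PGAM5 KD libraries. All PGAM5 KD libraries were above all controls, and its log2 fold change was 0.59 (SE 0.13, adjusted p = 0.0139 by limma). In the membrane arm, Ndufb8 rose from 26.6 ± 2.27 to 33.7 ± 1.44 FPKM (log2 fold change 0.33, adjusted p = 0.00928), and Ndufs5 from 57.0 ± 3.07 to 72.1 ± 6.90 FPKM (0.33, adjusted p = 0.0157). Ndufb3 rose from 42.1 ± 1.66 to 52.7 ± 3.08 FPKM (log2 fold change 0.31, adjusted p = 0.00465; SD, n = 3 each). Ndufb1-ps, the entry for the NDUFB1 subunit that the annotation lists as a noncoding gene, rose by 0.50 (adjusted p = 0.0414), and 12.7% of its exon bases lie under exons of Cpsf2 on the other strand.

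**Figure D5:**
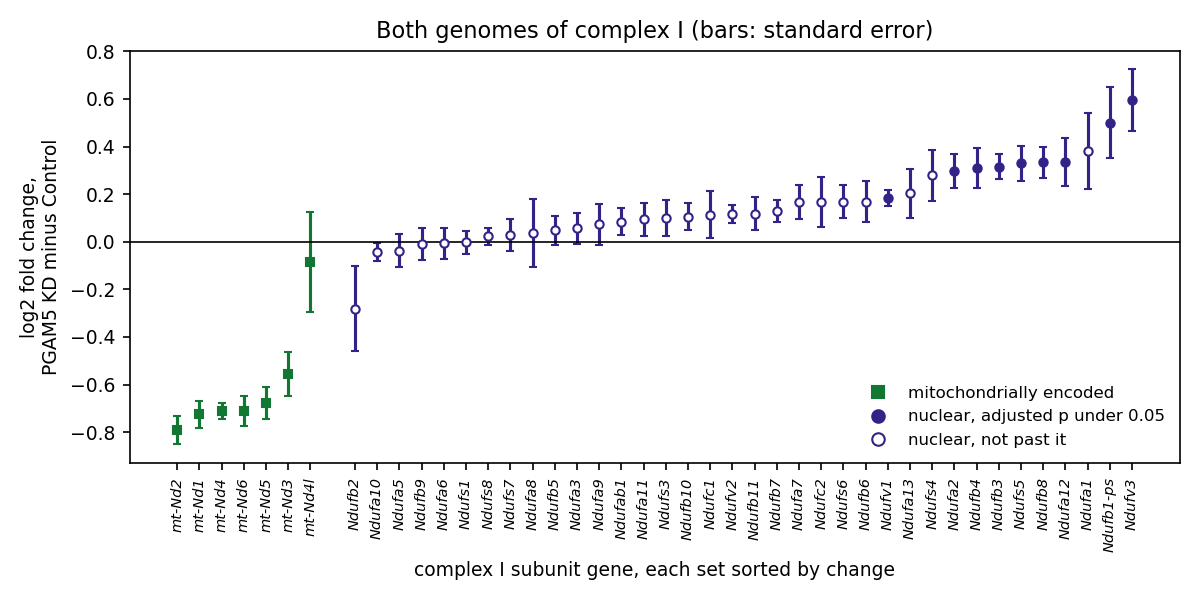
Fitted log2 fold change (PGAM5 KD minus control) of the 7 mitochondrially encoded (green squares) and 36 of the 37 nuclear (purple circles) complex I subunit genes, each set sorted, with bars of 1 standard error; filled circles have an adjusted p under 0.05. The mitochondrial genes run from -0.79 to -0.08 and the nuclear genes from -0.28 to 0.59, with 9 filled circles, all above 0; 1 nuclear gene is not drawn.

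Among 15 complex I assembly factors, which bring subunits of both genomes together, 7 rose and 1 fell by limma, where 16.8% of all tested genes rose and 14.9% fell. Under TPM 4 rose and 1 fell (10.3% and 21.7% of all tested genes), and as TPM over nuclear genes 3 rose and 2 fell (9.64% and 23.7%). With no filter on low values 3 rose and 1 fell (6.36% and 6.09%), and without single libraries 3 to 5 rose (11.5% to 14.2% of all tested genes). Ndufaf6 rose from 13.4 ± 0.479 to 17.5 ± 0.921 FPKM (log2 fold change 0.37, adjusted p = 0.00264), and Ndufaf7, a mitochondrial methyltransferase, from 3.76 ± 0.139 to 5.04 ± 0.0851 FPKM (0.34, adjusted p = 0.00563; SD, n = 3 each). Ndufaf2 rose by 0.43 (adjusted p = 0.0302), Ndufaf3 by 0.42 (adjusted p = 0.0298) and Ecsit, which also takes part in Toll-like receptor signalling, by 0.34 (adjusted p = 0.039). Exons on the opposite strand cover 65.6% of the exon bases of Ndufaf2 and 24.0% of those of Ecsit, as they do 58.1% of those of Pgam5, and the genes they belong to were listed at a mean of 0.776 FPKM or less. The counts do not appear to use strand, and genes wholly under exons of an expressed gene on the opposite strand were listed at 0. These low values therefore do not show that the overlaps are without effect on the 3 genes.

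Of 33 nuclear genes for the replication and upkeep of mitochondrial DNA and for transcription, processing and decay of mitochondrial RNA, 32 could be tested, 7 fell and 3 rose by limma, where 14.9% of all tested genes fell and 16.8% rose. Their median log2 fold change was -0.09. Lrpprc, which holds mitochondrial mRNAs stable, fell from 29.3 ± 0.637 to 23.5 ± 0.603 FPKM (log2 fold change -0.31, adjusted p = 0.00142). Polrmt, the mitochondrial RNA polymerase, fell from 9.76 ± 0.239 to 7.84 ± 0.513 FPKM (-0.28, adjusted p = 0.0111; SD, n = 3 each). Fastkd2, an RNA-binding protein of mitochondrial RNA granules, fell by 0.23 (adjusted p = 0.0376), while Pnpt1, the mitochondrial polynucleotide phosphorylase, rose by 0.28 (adjusted p = 0.0147) and Tefm, the elongation factor, by 0.22 (adjusted p = 0.0474). The counts of this list moved with the scaling, to 12 that fell and 1 that rose under TPM, where 21.7% of all tested genes fell and 10.3% rose. Without the first control library 3 fell and 1 rose (10.9% and 13.2% of all tested genes). Without the first or the second PGAM5 KD library 4 fell and 2 rose, where 12.9% or 10.9% of all tested genes fell and 14.2% or 12.3% rose.

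The nuclear genes whose levels over the 6 libraries were most like the mean of the 7 genes were Dmxl1 (Pearson r = 0.9999), Gna13, Wdfy3, Atf2 and Rgs1 (r = 0.9987). This pattern was common: 739 of 10514 nuclear genes, 7.03%, had r of at least 0.95. Dmxl1 was at 9.69, 10.1 and 9.38 FPKM in control and 6.496, 5.79 and 6.11 FPKM in PGAM5 KD libraries.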

How the data were processed

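RNA was extracted from iBMDMs, mRNA was purified with poly-T beads and libraries were sequenced by a company. The labels do not settle whether the kit kept strand. The authors deposited FPKM values, 1 table per library. The submitters' processing notes name HISAT2 2.0.5, featureCounts 1.5.0-p3 and mm10. The members and all gene lists were chosen with earlier results of these data known. Gene names came from GENCODE M21, which held 54495 of the identifiers (37 were not matched). Fragment numbers were recovered from FPKM and exon length, and 96.8% to 97.1% of values under 1000 fragments came out whole within 0.01, so 1 fragment on 1 kb is worth at most 0.0551 FPKM. These fragment numbers speak to counting error only.

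Genes with a mean of at least 1 FPKM (10540) were tested with limma 3.58.1 in R 4.3.3 on log2(FPKM + 1), with the trend option and p-values adjusted after Benjamini and Hochberg (threshold 0.05). Fold changes are on that scale and understate changes of low genes. The median log2 value per library was 3.29 to 3.30 in control and 3.29 in PGAM5 KD libraries. Under TPM it was 4.90 to 4.91 and 4.81 to 4.83, and 1088 genes were higher and 2282 lower against 1771 and 1575. On simulated data for 10466 genes, all given the same median spread between libraries, the fit found 183 of 198 genes changed 1.6-fold, with 7 false calls. Real genes differ in their spread, so this rate does not hold for noisier genes. Nuclear copies were annotated transcripts with at least 90% identity over at least 100 bases by blastn 2.17.0. From the nuclear subunits, assembly factors and mitochondrial DNA and RNA genes, up to 5 each were named, those with the largest change past the threshold and no overlap between groups. The 5 genes most like the members were named by Pearson r. Alternatives were another pseudocount, filters, scalings, voom on recovered fragments, array weights, a replicate block and leaving out each library. Replicate numbers did not pair the libraries (correlations of deviations -0.05 to 0.02). Of the nuclear subunits, 1 is counted in the list but not reported by name.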

Additional observations from a re-analysis of the deposited data

How the results depend on the processing

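The complex I genes of the mitochondrial genome were chosen on this contrast, so their counts are a description: 6 were lower under every alternative run except at a mean of at least 5 FPKM, which leaves out mt-Nd3 and mt-Nd4l, and with voom on recovered fragments, where mt-Nd3 was not past the threshold. Both gave 5. The median of the 7 log2 fold changes was -0.82 with quantile normalization and -0.81 as TPM over nuclear genes, and -0.74 to -0.65 without single libraries. The 10 nuclear complex I subunits that rose became 5 with no filter on low values, 4 as TPM and 3 as TPM over nuclear genes, where 1 fell, and 4 to 9 without single libraries. In the list for mitochondrial DNA and RNA, the 3 that rose became 1 with no filter, as TPM or with no trend, 0 as TPM over nuclear genes and 1 to 2 without single libraries. The 7 that fell became 4 with no filter, 12 as TPM, 13 as TPM over nuclear genes and 3 to 6 without single libraries. The shares of all tested genes that rose and fell moved too. They were 6.36% and 6.09% with no filter, 10.3% and 21.7% as TPM, and 9.64% and 23.7% as TPM over nuclear genes. With no trend they were 14.7% and 14.9%, and without single libraries 11.5% to 14.2% and 10.7% to 12.9%. With no filter, the 5 nuclear subunits that rose were 13.5% of their list. With a replicate block, 6 of these complex I genes were lower, 4 of that list fell, and 1440 genes were higher and 1212 lower. The numbers are only names: 0 of 6 libraries correlated best with the library of its own number. The log2 fold change of Pgam5 was -1.60 to -1.28 throughout. The causes of these changes were not tested. Few fragments limit what can be said of mt-Nd3 and mt-Nd4l, with at most 30 in a library.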

Other observations

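Among the 22 tRNA genes of the mitochondrial genome, 12 could be tested, and most hold few fragments in these mRNA libraries. By limma 4 were lower and 1 was higher past an adjusted p of 0.05 in PGAM5 KD libraries, where 14.9% of all tested genes were lower and 16.8% higher. The run of tRNA genes between mt-Nd4 and mt-Nd5 was singled out for its position and after its values were seen. There mt-Th was at 23.8, 12.6 and 18.3 FPKM in control and 7.47, 11.5 and 9.79 FPKM in PGAM5 KD libraries, mt-Ts2 at 17.7, 34.4 and 23.4 against 2.31, 11.2 and 5.56 FPKM, and mt-Tl2 at 30.2, 21.6 and 20.2 against 3.20, 11.6 and 7.51 FPKM, with no overlap between the groups in any of them. These values rest on few fragments per library, 11 to 29 for mt-Th, 3 to 41 for mt-Ts2 and 5 to 39 for mt-Tl2. Of all tested genes, 22.9% had every PGAM5 KD library below every control library.

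The tRNA gene directly before mt-Nd1, mt-Tl1, went the other way, at 6.61, 7.27 and 4.78 FPKM in control and 21.2, 18.4 and 8.20 FPKM in PGAM5 KD libraries (adjusted p = 0.0344 by limma), from 7 to 35 fragments per library. The gene that follows mt-Nd1, mt-Ti, was at 4.79, 1.44 and 0.742 FPKM in control and listed at 0 in all PGAM5 KD libraries, from at most 6 fragments. It is 1 of the 4 lower genes, and it passed the filter on low values only through its control libraries. On the minus strand, mt-Tn was at 17.1, 6.98 and 10.8 FPKM in control and 16.02, 13.96 and 18.5 FPKM in PGAM5 KD libraries, and mt-Tc at 10.8, 27.03 and 38.0 against 72.4, 34.2 and 35.4 FPKM, and neither passed the threshold. The minus-strand gene mt-Tp, the most abundant tRNA gene in these files, was at 315 ± 40.5 FPKM in control and 291 ± 35.0 FPKM in PGAM5 KD libraries (SD, n = 3 each) and did not pass the threshold.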
